A study of Mus musculus with 96 samples.

Results

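The transporters described here are 6 genes of mouse kidney that move organic cations and carnitine across cell membranes: Slc22a2 (ENSMUSG00000040966), Slc22a3 (ENSMUSG00000023828), Slc22a4 (ENSMUSG00000020334), Slc22a5 (ENSMUSG00000018900), Slc47a1 (ENSMUSG00000010122) and Slc47a2 (ENSMUSG00000069855). They were chosen by gene symbol, as the kidney's organic cation, carnitine and multidrug extrusion carriers, and are 6 of the 54532 genes in the deposited table. Tubule segments and glomeruli were cut by hand from kidneys of male C57BL/6 mice of 6 to 8 weeks, with no treatment or allele named in the labels, and their RNA was sequenced from ultra-low input. The 93 samples come from 53 mice, 50 for the 14 tubule segments and 3 for the glomerulus. Values are TPM, a transcript abundance scaled for gene length and for the library total, so levels can be set side by side between genes.

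The 15 groups are named as the submitters named them. GL is the glomerulus (3 mice). PTS1 is the first part of the convoluted proximal tubule (3 mice), PTS2 the straight proximal tubule of the cortical medullary rays (5 mice), and PTS3 its end in the outer stripe of the outer medulla (3 mice). DTL1 is the descending thin limb of short loops (3 mice), while DTL2 (3 mice) and DTL3 (3 mice) are the descending thin limb of long loops in the outer and the inner medulla. ATL is the thin ascending limb (4 mice), MTAL (3 mice) and CTAL (5 mice) are the medullary and cortical thick ascending limb, DCT is the distal convoluted tubule (3 mice) and CNT the connecting tubule (3 mice). CCD (5 mice), OMCD (4 mice) and IMCD (3 mice) are the collecting duct of cortex, outer medulla and inner medulla.

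Organic cations, which include drugs such as metformin, creatinine and monoamines, leave the blood through facilitated uptake carriers of the Slc22 family on the basolateral side of proximal tubule cells. They pass into the urine through the proton-coupled antiporters of the Slc47 family (MATE carriers) on the apical side. The related OCTN carriers sit on the apical side, where the sodium-coupled carnitine carrier Slc22a5 recovers filtered carnitine, the shuttle that takes long-chain fatty acids into mitochondria.

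The groups carried the defining markers of their names. The summed TPM of 2 podocyte genes (Nphs1, Podxl) had a median of 2358 in GL, that of 7 proximal tubule genes (Lrp2, Cubn, Slc34a1, Slc27a2, Miox, Fbp1, Kap) 24367 in PTS1, 59863 in PTS2 and 89411 in PTS3, and that of 3 thin descending limb genes (Aqp1, Slc14a2, Fst) 8826, 8933 and 11720 in DTL1, DTL2 and DTL3. Kap made up most of the proximal sum in PTS2 and PTS3, at means of 36100 and 75375 TPM, against 254 in PTS1. Some libraries stood apart. Odorant and vomeronasal receptor genes, which tubules are not known to use, reached 1 TPM at a median of 805 genes in DTL1, 609.5 in GL, 475 in DTL3, 326 in DTL2, 302.5 in ATL (29 and 17 in mice 2 and 3, 576 and 659 in mice 4 and 6) and 96 in OMCD, against 32 or fewer in each of the other groups. The 7 proximal genes also summed to 1159 to 4932 TPM in the DTL1 samples, or 1.296% to 5.516% of the PTS3 median. In 1 PTS2 column the piece letter matched no sample title, so it enters as 1 more PTS2 mouse with no number. Since TPM hold no read totals, how deeply each library was sequenced is unknown, and counting intervals cannot be given. In bulk pieces such as these, fewer cells of a type and less RNA per cell cannot be told apart.

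Tests were made with limma on log2(TPM + 1) in 1 fit of all 15 groups, with the mouse as the replicate and Benjamini-Hochberg adjustment over the 33793 genes that reached 1 TPM in 3 mice. A difference was called at an adjusted p under 0.05 with a log2 difference of at least 1, which is a factor of 2 on the TPM + 1 scale. Of the 6 transporters, 5 passed the filter and Slc47a2 did not. All 5 differed among the 15 groups (moderated F-test), as did 93.9% of all genes tested, so that count says nothing particular about them. A gene marked a group if it was higher there than in each of the other 14 groups. Slc22a2 marked PTS2 and Slc22a4 marked ATL, where 0.257% and 0.394% of all genes tested did so, and 8.8% of genes marked some group.

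**Figure D1:**
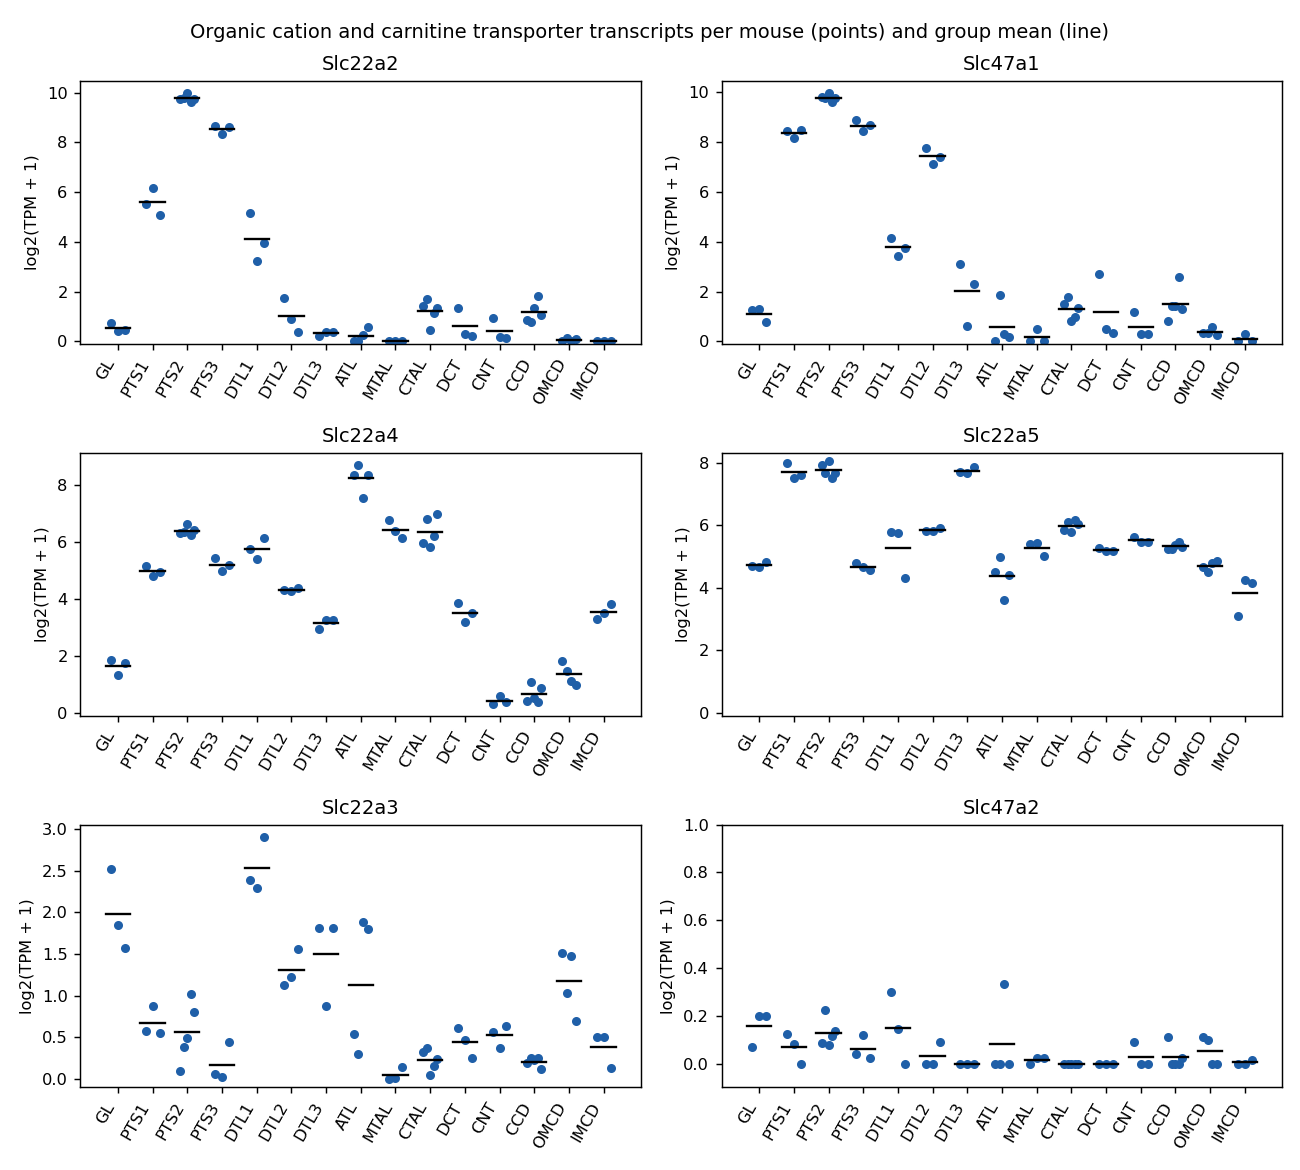
Level of each transporter as log2(TPM + 1) (vertical axes, scaled separately for each gene) in the 15 groups along the nephron (horizontal axes); points are mice and lines are group means. Slc22a2 and Slc47a1 peak in PTS2, Slc22a4 in ATL, Slc22a5 in PTS1, PTS2 and DTL3, and no mouse exceeds 6.49 TPM of Slc22a3 or 0.26 TPM of Slc47a2.

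Slc22a2 (OCT2), the basolateral uptake carrier for organic cations, was a transcript of the later proximal tubule. It averaged 882 ± 75.6 TPM in PTS2 (SD, n = 5), 374 ± 42.3 in PTS3 (n = 3) and 49.6 ± 19.0 in PTS1 (n = 3). The PTS2 mice stood at 865, 891, 1003, 800.3 and 849 TPM, the PTS3 mice at 403, 326 and 394, and the PTS1 mice at 45.3, 70.4 and 33.0. Every PTS2 mouse was above every PTS3 mouse, and every PTS3 mouse above every PTS1 mouse. Outside the proximal tubule DTL1 held 19.3 ± 13.8 TPM (n = 3), DTL2 1.82 ± 2.11 (n = 3), CTAL 1.42 ± 0.700 (n = 5) and CCD 1.37 ± 0.772 (n = 5), and each of the other 8 groups averaged under 1 TPM. The transcript was listed at 0 in 22 of the 93 samples, 8 of them among the 9 IMCD samples and 5 among the 6 of MTAL.

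The steps of Slc22a2 along the proximal tubule were called. PTS1 was lower than PTS2 by a log2 difference of -4.19 (SE 0.30, limma adjusted p 1.77e-15) and lower than PTS3 by -2.95 (SE 0.34, adjusted p 1.60e-09). PTS2 was higher than PTS3 by 1.24 (SE 0.30, adjusted p 0.00248), and this is also its margin over all other groups, with an adjusted p of 0.0244 for marking PTS2. Over 64 alternatives that p ran from 7.70e-06 to 1, and the mark was lost without PTS2 mouse 3 (margin 1.23) or mouse 4 (1.19), or without PTS3 mouse 1 (1.298), mouse 2 (1.14) or mouse 3 (1.28). It was also lost with a pseudocount of 0.1, with median ratio rescaling, under quantile normalization and with pieces averaged as TPM. The call between PTS2 and PTS3 alone was lost with the pseudocount of 0.1 (adjusted p 0.205) and under quantile normalization (0.97). The margin itself stayed between 0.97 and 1.298 in all 64.

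The level of Slc22a2 in DTL1 was set beside the sum of the 7 proximal genes. DTL1 mouse 1 held 34.9 TPM, mouse 3 8.56 and mouse 5 14.4, which is 1.80% to 9.31% of the PTS3 mean over the 4 DTL1 samples. The 7 proximal genes stood at 1.296% to 5.516% of their PTS3 median in these samples, and mouse 1 was highest in both. The part of proximal RNA in the DTL1 value was not tested. PTS3 was higher than DTL1 by 4.43 (SE 0.34, limma adjusted p 2.96e-15), DTL1 was higher than DTL2 by 3.11 (SE 0.34, adjusted p 8.01e-10), and PTS3 was higher than DTL2 by 7.54 (SE 0.34, adjusted p 5.17e-23). Without DTL1 mouse 1 and without the DTL2 and DCT pieces richest in proximal transcripts, the 3 differences were 4.96, 3.06 and 8.02.

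Farther along the tubule, CTAL was higher than MTAL for Slc22a2 (log2 difference MTAL minus CTAL -1.21, SE 0.30, limma adjusted p 0.00697) and CCD higher than OMCD (1.11, SE 0.28, adjusted p 0.0026), at levels of at most 2.57 TPM in a mouse. The first call was lost with a pseudocount of 5 (-0.35), and the second with that pseudocount (0.33), with median ratio rescaling (0.996) and without CCD mouse 4 (0.95). The 7 proximal genes summed to medians of 254 TPM in CTAL and 176 in CCD against 3.02 in MTAL and 19.4 in OMCD, and their part in these low values was not tested. In the order of Slc22a2 levels PTS2, PTS3, PTS1 and DTL1 each differed from the next, whereas from CTAL on no step to the following group had an adjusted p under 0.05.

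The 250 bases before the start of Slc22a2 (RefSeq, GRCm38.p6, chr17:12583939-12584188, plus strand) are shown because this promoter differs in base composition from those of the OCTN genes, printed with their results. Capitals mark CAAT boxes (CCAAT or ATTGG) or GC boxes (GGGCGG or CCGCCC), searched on both strands.
Slc22a2: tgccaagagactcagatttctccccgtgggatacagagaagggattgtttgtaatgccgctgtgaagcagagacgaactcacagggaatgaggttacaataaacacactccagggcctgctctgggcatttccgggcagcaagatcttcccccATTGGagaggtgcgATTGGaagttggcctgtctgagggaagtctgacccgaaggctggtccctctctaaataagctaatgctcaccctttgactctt
Its GC content was 51.6% with 6 CpG, against medians of 52.4% and 6 over the same window of 32851 promoters. It held 2 CAAT boxes, 97 and 83 bases before the start, and 33.8% of all promoters held at least 1. It held no GC box, TATA box (TATAAA), E-box (CACGTG) or nuclear receptor half-site (AGGTCA). Such matches are letters in a window and were not set against any measured binding.

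Slc22a3 (OCT3), a low-affinity uptake carrier for organic cations and monoamines, was low in every group. Its highest mouse reached 6.49 TPM, 17 of the 53 mice reached 1 TPM, and it averaged 4.88 ± 1.41 TPM in DTL1 (n = 3), 3.25 ± 1.67 in GL (n = 3), 1.96 ± 0.973 in DTL3 (n = 3), 1.55 ± 0.383 in DTL2 (n = 3), 1.47 ± 1.31 in ATL (n = 4) and 1.33 ± 0.590 in OMCD (n = 4). The other 9 groups averaged 0.6 TPM or less. These 6 groups are the 6 in which the most odorant and vomeronasal receptor genes reached 1 TPM. Within ATL the mice stood at 0.450, 0.230, 2.70 and 2.49 TPM (mice 2, 3, 4 and 6), and the 2 higher mice are the 2 with the many receptor genes. The first 4 of these groups were also the 4 with the most endothelial RNA: 4 endothelial marker genes, Pecam1 and Cdh5 among them, summed to 2648.5 to 2882 TPM in the GL samples, 665 to 897 in DTL1, 229 to 444 in DTL3 and 252 to 485 in DTL2. Their median was 132 TPM or less in each of the other 11 groups, with 62.4 in ATL and 99.1 in OMCD. The part of endothelial RNA in the Slc22a3 values was not tested. No step between groups next to each other in the order of Slc22a3 levels had an adjusted p under 0.05.

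The calls on Slc22a3 followed the same libraries. PTS3 was lower than DTL1 by -2.36 (SE 0.30, limma adjusted p 3.46e-09) and lower than DTL2 by -1.13 (SE 0.30, adjusted p 0.00138). Both differences turned to 0.08 and 0.19 under quantile normalization, where the median difference of all genes between PTS3 and DTL1 went from -1.33 to -0.02. DTL1 was higher than DTL2 by 1.23 (SE 0.30, adjusted p 0.00093), or 0.11 under quantile normalization. ATL was higher than MTAL by 1.08 (SE 0.28, adjusted p 0.00169), a call lost without ATL mouse 4 (0.83) or mouse 6 (0.85), with ATL mice 2 and 3 alone (0.36), under quantile normalization (0.29) and with the mouse number as a replicate block (0.82). With a pseudocount of 5 these 4 differences were -0.93, -0.34, 0.59 and 0.34, all under the size needed for a call, and with median ratio rescaling that of PTS3 and DTL2 was -0.89. In GENCODE M21, 420 of its 4513 exonic bases (9.31%) overlap an exon of Plg on the other strand, so reads of the pair may not be separable there. How far the receptor-rich libraries set the Slc22a3 values was not tested.

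**Figure D2:**
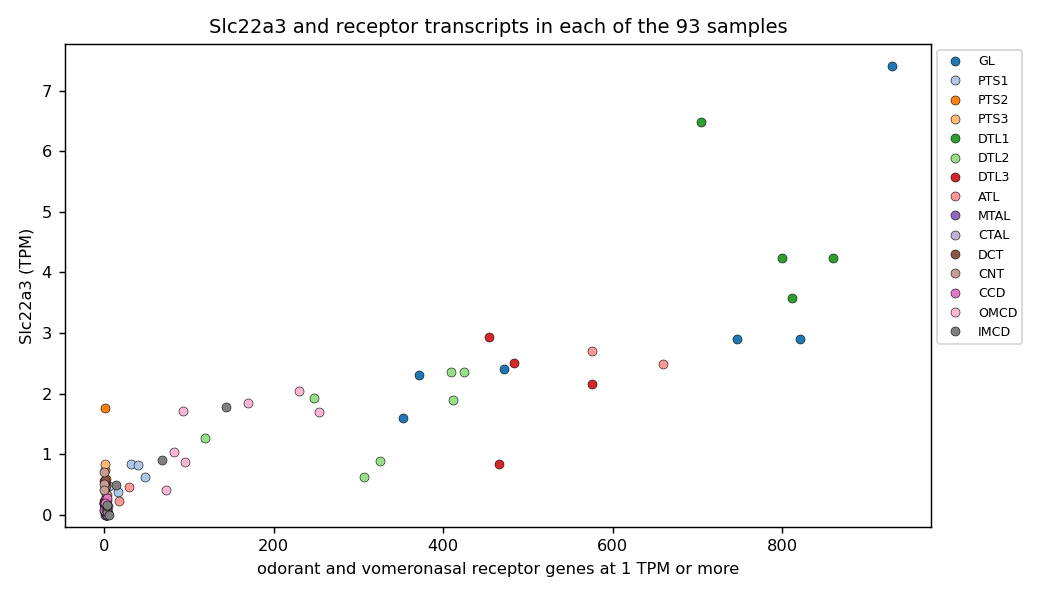
Slc22a3 level in TPM (vertical axis) against the number of odorant and vomeronasal receptor genes at 1 TPM or more (horizontal axis), with 1 point for each of the 93 samples, coloured by group. The samples above 3 TPM, all of DTL1 or GL, have 704 receptor genes or more.

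Slc22a4 (OCTN1), the carrier of the antioxidant ergothioneine, was highest in the thin ascending limb. It averaged 318 ± 97.6 TPM in ATL (n = 4), 87.7 ± 19.7 in MTAL (n = 3), 85.9 ± 31.3 in CTAL (n = 5), 84.2 ± 8.63 in PTS2 (n = 5) and 55.1 ± 14.5 in DTL1 (n = 3). The ATL mice stood at 328, 423, 187 and 333 TPM, the MTAL mice at 109, 82.9 and 70.8, and the CTAL mice at 62.3, 111, 55.6, 73.8 and 126. All ATL mice were above all mice of every other group, and MTAL and CTAL overlapped. It was far lower in the connecting tubule and cortical collecting duct, at 0.385 ± 0.185 TPM in CNT (n = 3) and 0.601 ± 0.359 in CCD (n = 5), and stood at 1.64 ± 0.715 in OMCD (n = 4) and 11.2 ± 2.30 in IMCD (n = 3).

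ATL was higher than MTAL, the next group, by 1.81 (SE 0.24), with an adjusted p of 8.23e-07 for marking ATL in limma's fit. The mark held in all 64 alternatives (margin 1.65 to 2.04 without single mice), ATL mice 2 and 3 alone and ATL mice 4 and 6 alone included. DTL3, which joins ATL at the bend of the loop, was lower than ATL by -5.10 (SE 0.24, adjusted p 1.36e-21). The DTL3 mice held 6.68, 8.61 and 8.68 TPM, below every ATL mouse. The thin ascending limb genes Cldn10 and Psca summed to a median of 18076 TPM in ATL and 2.28 in DTL3.

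Along the rest of the nephron Slc22a4 changed in steps. In the proximal tubule PTS2 was higher than PTS1 (PTS1 minus PTS2 -1.42, SE 0.23, limma adjusted p 3.51e-06) and than PTS3 (1.20, SE 0.23, adjusted p 0.000127), while PTS1 and PTS3 differed by -0.22 (SE 0.26, adjusted p 0.711). The PTS1 mice stood at 35.01, 27.6 and 30.2 TPM, the PTS2 mice at 78.5, 82.2, 98.2, 76.3 and 86.0, and the PTS3 mice at 42.5, 30.9 and 36.1, with no overlap of PTS2 with the other 2. Under quantile normalization both steps fell below the log2 difference of 1 (-0.94 and 0.74), as did the second under median ratio rescaling (0.99). In the descending limb DTL1 was higher than DTL2 by 1.45 (SE 0.26, adjusted p 1.86e-05) and DTL2 than DTL3 by 1.17 (SE 0.26, adjusted p 0.00071), the latter call being lost with a pseudocount of 5 (0.90).

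Beyond the thick limb, CTAL was higher than DCT by 2.85 (SE 0.23, limma adjusted p 1.36e-13) and DCT than CNT by 3.08 (SE 0.26, adjusted p 7.11e-13). IMCD was higher than OMCD (OMCD minus IMCD -2.20, SE 0.24, adjusted p 3.94e-10). The DCT mice stood at 13.5, 8.15 and 10.5 TPM, the CNT mice at 0.245, 0.595 and 0.315, and the IMCD mice at 9.32, 10.5 and 13.8. Slc22a4 thus took its lowest levels in CNT and CCD, whose difference was not called (-0.22, SE 0.23, adjusted p 1), and was higher again in IMCD. In the order of its levels the steps between MTAL, PTS2 and CTAL had adjusted p above 0.05, as had those between PTS3 and PTS1, IMCD and DCT, DCT and DTL3, GL and OMCD, and CCD and CNT.

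Slc22a5 (OCTN2), the sodium-coupled carnitine carrier, was present in every group and highest in 3 groups that are not all neighbours. It reached 1 TPM in all 53 mice and 10 TPM in 52, with 7.80 TPM in the lowest mouse. It averaged 217 ± 35.1 TPM in PTS2 (n = 5), 212 ± 15.6 in DTL3 (n = 3) and 209 ± 37.5 in PTS1 (n = 3), and no difference between those 3 groups was called (limma adjusted p 0.959 for PTS2 and DTL3, 0.914 for PTS1 and DTL3, 0.927 for PTS1 and PTS2). The next group, CTAL, stood at 62.3 ± 7.13 TPM (n = 5) and was lower than PTS1 by 1.72 (adjusted p 2.57e-08). IMCD was lowest at 14.2 ± 5.59 TPM (n = 3). From CTAL down to IMCD no step in the order of levels had an adjusted p under 0.05.

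The drop of Slc22a5 at the end of the proximal tubule was large. The PTS1 mice stood at 251, 181 and 194 TPM, the PTS2 mice at 239, 200.4, 266, 179 and 199.8, and the PTS3 mice at 26.7, 24.1 and 22.8. All mice of PTS1 and PTS2 were above all of PTS3. PTS2 was higher than PTS3 by 3.09 (SE 0.23, limma adjusted p 2.70e-14) and PTS1 than PTS3 by 3.03 (SE 0.26, adjusted p 2.35e-13), whereas PTS1 and PTS2 differed by -0.06 (SE 0.23). Of the proximal marker genes, the phosphate carrier Slc34a1 likewise had its lowest proximal mean in PTS3, at 44.2 TPM against 9502 in PTS1 and 5659 in PTS2, while Kap had its highest there.

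In the long descending limb Slc22a5 was higher in the inner than in the outer medulla, and it was low past the bend. The DTL2 mice stood at 54.8, 55.4 and 59.4 TPM, the DTL3 mice at 205, 201 and 230 and the ATL mice at 21.8, 30.5, 11.04 and 19.98, with no overlap between these groups. DTL2 was lower than DTL3 by -1.89 (SE 0.26, limma adjusted p 1.80e-07) and DTL3 higher than ATL by 3.36 (SE 0.24, adjusted p 1.49e-15). PTS3 was lower than DTL2 by -1.18 (SE 0.26, adjusted p 0.000129), a call lost under median ratio rescaling (-0.18) and quantile normalization (-0.31). DTL1 held 53.7 and 52.2 TPM in mice 1 and 3 and 18.7 in mouse 5.

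On chromosome 11 the 2 OCTN genes lie in 1 cluster with only Slc22a21 between them among protein-coding genes of RefSeq. Their promoters are shown because the 2 genes nonetheless peak in different segments. Both are on the minus strand of GRCm38.p6 (RefSeq), Slc22a4 at chr11:54028105-54028354 and Slc22a5 at chr11:53891704-53891953.
Slc22a4: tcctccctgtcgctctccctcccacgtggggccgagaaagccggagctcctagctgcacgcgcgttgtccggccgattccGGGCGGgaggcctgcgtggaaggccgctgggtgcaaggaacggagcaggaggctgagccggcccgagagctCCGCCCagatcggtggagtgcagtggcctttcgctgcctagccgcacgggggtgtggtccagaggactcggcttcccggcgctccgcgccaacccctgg
Slc22a5: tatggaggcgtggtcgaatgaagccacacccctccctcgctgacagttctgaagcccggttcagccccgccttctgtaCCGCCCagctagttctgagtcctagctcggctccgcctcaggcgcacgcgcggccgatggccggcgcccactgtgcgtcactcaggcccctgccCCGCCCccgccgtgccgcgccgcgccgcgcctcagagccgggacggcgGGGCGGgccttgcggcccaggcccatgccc
GC content was 71.2% with 26 CpG for Slc22a4 and 73.6% with 30 CpG for Slc22a5, above 92.2% and 94.7% of promoters in GC content. Slc22a4 held 2 GC boxes, 170 and 99 bases before the start, and 1 E-box at 228, and Slc22a5 held 3 GC boxes at 172, 78 and 30. A GC box is found in 32.7% of promoters and the E-box in 6.02%. Neither promoter held a TATA box (12.4% of promoters), CAAT box or nuclear receptor half-site (14.0%).

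The 2 OCTN carriers ran in different ratios along the nephron. The log2 ratio of Slc22a5 to Slc22a4 (TPM + 1) within a mouse was 2.71 ± 0.09 in PTS1 (n = 3), 1.35 ± 0.17 in PTS2 (n = 5) and -0.55 ± 0.18 in PTS3 (n = 3), with no overlap between the 3 segments. The exact two-sided permutation test gave p = 0.0357 for PTS1 against PTS2 and for PTS2 against PTS3 and p = 0.1 for PTS1 against PTS3, or 0.0714, 0.0714 and 0.1 after adjustment over 6 ratio tests. The smallest p this two-sided test allows is 0.0357 for 3 against 5 mice and 0.1 for 3 against 3, so none of the ratio tests could pass 0.05 after adjustment. The same ratio was 4.57 ± 0.17 in DTL3 (n = 3), -3.89 ± 0.11 in ATL (n = 4) and 5.08 ± 0.22 in CNT (n = 3).

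Slc22a21, the third gene of that cluster and a carnitine carrier related to Slc22a5, was low. It averaged 18.7 ± 9.02 TPM in ATL (n = 4), 17.6 ± 0.507 in DTL1 (n = 3), 16.0 ± 2.53 in DTL3 (n = 3), 13.9 ± 5.36 in GL (n = 3) and 12.4 ± 0.777 in IMCD (n = 3), and 2.24 ± 0.0608, 2.02 ± 0.448 and 2.75 ± 2.49 in PTS1, PTS2 and PTS3. All of the 5 higher groups but IMCD are among those with many receptor genes, and within ATL mice 4 and 6, which have the most, stood at 24.8 and 25.9 TPM against 6.29 and 17.7 in mice 2 and 3. The part of these libraries in the Slc22a21 values was not tested. Of all 50-base stretches of Slc22a5 transcripts, 26.3% also occur in Slc22a21, Slc22a4 or Gm12220, as do 22% of those of Slc22a21 in Slc22a5 or Slc22a4 and 2.64% of those of Slc22a4 in the other genes of the cluster. Values of Slc22a5 and Slc22a21 are to that extent uncertain, since the split of shared reads cannot be seen in TPM.

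**Figure D3:**
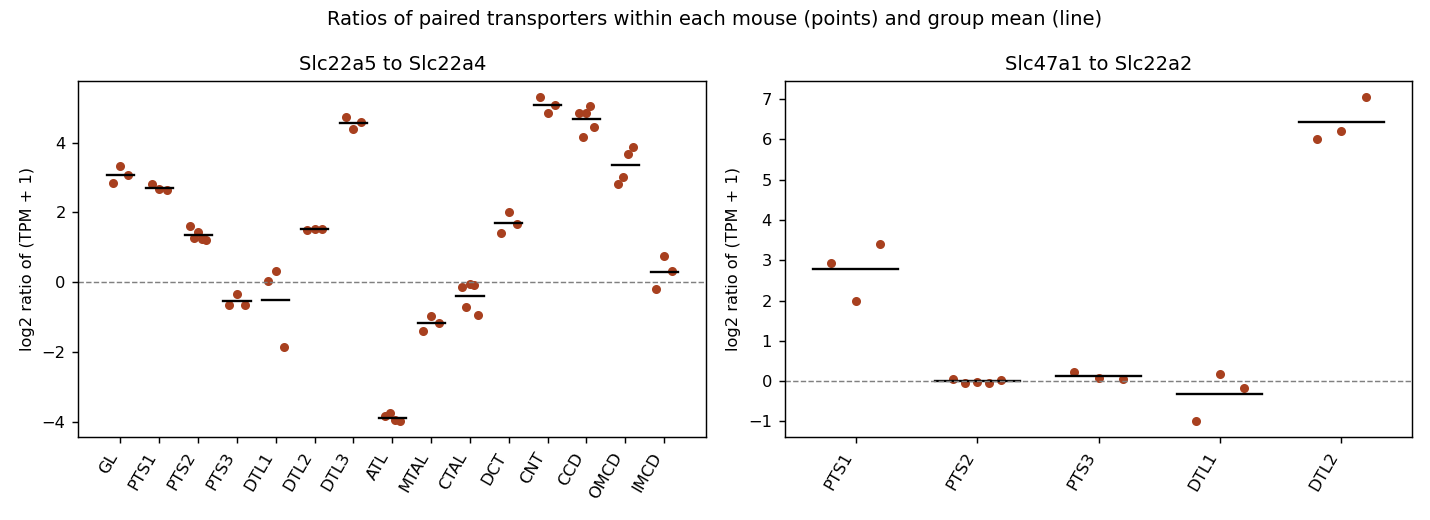
Log2 ratio of (TPM + 1) of Slc22a5 to Slc22a4 in all 15 groups (left) and of Slc47a1 to Slc22a2 in the proximal and first descending segments (right); points are mice, lines group means and the dashed line equal levels. The first ratio is highest in CNT and lowest in ATL, and the second is near 0 in PTS2 and PTS3 and highest in DTL2.

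Slc47a1 (MATE1), the apical proton antiporter that passes organic cations into the urine, was high in all 3 proximal segments and in 1 thin limb segment. It averaged 331 ± 39.3 TPM in PTS1 (n = 3), 880 ± 76.9 in PTS2 (n = 5), 408 ± 60.2 in PTS3 (n = 3) and 178 ± 46.0 in DTL2 (n = 3). The PTS1 mice stood at 349.7, 286 and 358 TPM, the PTS2 mice at 902, 869, 986, 772 and 870.1, and the PTS3 mice at 469.8, 349 and 406. Every PTS2 mouse was above every PTS1 and PTS3 mouse, and PTS1 and PTS3 overlapped. DTL1 followed at 13.1 ± 3.64 TPM (n = 3) and DTL3 at 4.02 ± 3.52 (n = 3), and each of the other 9 groups averaged 2.61 TPM or less.

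PTS1 was lower than PTS2 for Slc47a1 by -1.41 (SE 0.41, limma adjusted p 0.00827), a call lost without PTS1 mouse 2 (-1.31) and with a pseudocount of 0.1 (-1.41). The difference of 1.12 between PTS2 and PTS3 (SE 0.41, adjusted p 0.0626) and that of -0.29 between PTS1 and PTS3 (SE 0.45, adjusted p 0.795) were not called. Slc47a1 marked no group (margin of PTS2 over PTS3 1.12, adjusted p 0.572). In the order of its levels DTL2 and DTL1 were the groups that differed from the next one, DTL1 and DTL3 respectively, while the steps from PTS2 through PTS3 and PTS1 to DTL2 did not pass (adjusted p 0.0626, 0.795 and 0.0931).

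DTL2 held Slc47a1 at a far larger share of its PTS3 level than Slc22a2. The DTL2 mice stood at 228, 137 and 170.1 TPM, the DTL1 mice at 16.96, 9.74 and 12.6 and the DTL3 mice at 7.57, 0.530 and 3.97, with no overlap of DTL2 with either. DTL1 was lower than DTL2 by -3.65 (SE 0.45, limma adjusted p 1.79e-08) and DTL2 higher than DTL3 by 5.42 (SE 0.45, adjusted p 6.85e-13). PTS3 was higher than DTL1 by 4.88 (SE 0.45, adjusted p 1.04e-12) and than DTL2 by 1.23 (SE 0.45, adjusted p 0.0195), the latter lost without PTS3 mouse 1 (1.12) or DTL2 mouse 2 (1.07) and with a pseudocount of 0.1 (1.23). In each of the 7 DTL2 pieces Slc47a1 was at 32.0% to 72.6% of the PTS3 mean, whereas Slc22a2 was at 0% to 2.20% and the sum of the 7 proximal genes, mostly Kap, at 0.0235% to 1.38% of its own. Taken singly, Slc27a2, Miox, Fbp1 and Kap were at 3.94% or less in every DTL2 piece and Lrp2 at 6.57% or less. Cubn, with a PTS3 mean of only 18.8 TPM, reached 16.0%, and Slc34a1 stood at 98.7% in 1 piece of mouse 2 (43.6 TPM) and at 3.12% or less in the other 6. The OCTN genes, which are not low in DTL2, were at 45.0% to 59.2% (Slc22a4) and 201% to 250.3% (Slc22a5) of their PTS3 means. In the 4 DTL1 samples the 3 values ran together, at 2.02% to 4.15%, 1.80% to 9.31% and 1.296% to 5.516%.

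One piece of DTL2 mouse 1 held the most proximal RNA of that group, 1232 TPM over the 7 genes, together with 296 TPM of Slc47a1 and 8.24 of Slc22a2. The other piece of the same mouse held 54.1 TPM of the proximal genes, 159 of Slc47a1 and 0.240 of Slc22a2. Leaving out DTL1 mouse 1 and the richest pieces of DTL2 and DCT, the DTL1-DTL2 difference was -3.70, the DTL2-DTL3 difference 5.27 and the PTS3-DTL2 difference 1.38.

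**Figure D4:**
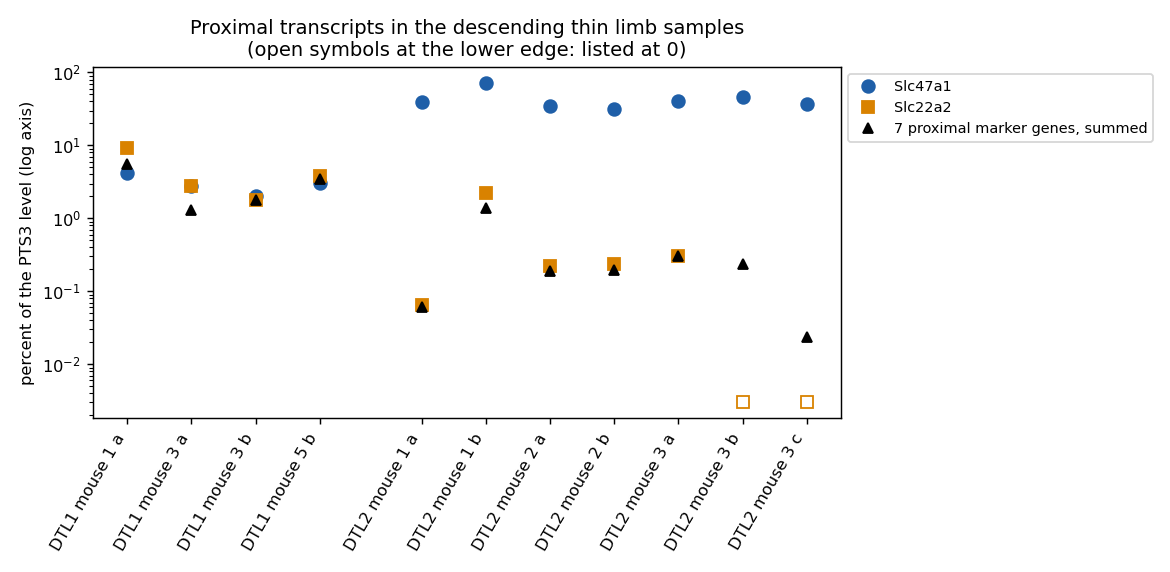
Slc47a1, Slc22a2 and the sum of 7 proximal marker genes in each DTL1 and DTL2 sample, as a percentage of their level in PTS3 (vertical log axis, open symbols at the lower edge for values listed at 0). In DTL1 the 3 measures lie between 1.296% and 9.31%, and in DTL2 Slc47a1 stands at 32.0% to 72.6%, above the other 2 measures.

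The uptake and efflux carriers stood in different proportion along the proximal tubule. The log2 ratio of Slc47a1 to Slc22a2 was 2.78 ± 0.71 in PTS1 (n = 3), -0.00 ± 0.05 in PTS2 (n = 5) and 0.12 ± 0.09 in PTS3 (n = 3). PTS1 did not overlap with the other 2 segments, which overlapped with each other. The exact two-sided permutation test gave p = 0.0357 for PTS1 against PTS2 (0.0714 after adjustment over the 6 ratio tests), 0.0714 for PTS2 against PTS3 (0.1 adjusted) and 0.1 for PTS1 against PTS3 (0.1 adjusted).

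Outside these segments, the calls on Slc47a1 between neighbouring groups low in it were each lost when a single mouse was left out. DTL3 was higher than ATL by 1.42 (SE 0.42, limma adjusted p 0.00862), a call lost without DTL3 mouse 1 (0.87), with ATL mice 2 and 3 alone (1.07), with a pseudocount of 5 (0.59) and under quantile normalization (0.65). CCD was higher than OMCD by 1.14 (SE 0.37, adjusted p 0.0188), lost without CCD mouse 4 (0.87) and with a pseudocount of 5 (0.40). The DCT mice held 7.12, 0.440 and 0.285 TPM, and the higher piece of the first mouse, with 12.1 TPM, had 627 TPM of the 7 proximal genes against 14.66 to 112 in the other 5 DCT pieces. CCD mouse 4 had 587 TPM of them against 94.4 to 922 in the other 6 CCD pieces. The part of proximal RNA in these values was not tested.

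Slc47a2 (MATE2), the second antiporter of the family, was near 0 throughout. It was listed at 0 in 59 of the 93 samples, reached 0.310 TPM in the highest sample and 0.260 in the highest mouse, and no mouse reached 1 TPM. The PTS2 mice stood at 0.060, 0.175, 0.055, 0.085 and 0.10 TPM, and DTL3, CTAL and DCT were listed at 0 in all their samples. Slc47a2 lies next to Slc47a1 on chromosome 11 with no protein-coding gene between them, and no 50-base stretch is shared between their transcripts (0 of 3381 for Slc47a1 and 0 of 2371 for Slc47a2).

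Between neighbouring segments the 5 tested transporters gave 31 calls over the 14 pairs, where 17.5% of all gene-by-pair tests were called. From PTS1 to PTS2, 3 of 5 were called (9.57% of all genes), all higher in PTS2 (5.1% of all genes), and from PTS2 to PTS3 3 of 5 (4.7%), all higher in PTS2 (3.94%). Against DTL1, 3 of 5 differed from PTS3 (65.5%), and against DTL2 4 of 5 (40%). DTL1 and DTL2 differed in 4 (28.2%), DTL2 and DTL3 in 3 (9.58%), DTL3 and ATL in 3 (14.6%) and ATL and MTAL in 2 (28.1%). MTAL and CTAL differed in 1 (3.15%), CTAL and DCT in 1 (4.35%), DCT and CNT in 1 (5.22%), CNT and CCD in 0 (1.12%, with an unadjusted limma p under 0.05 for 2 members, Slc22a2 at 0.0151 and Slc47a1 at 0.0284), CCD and OMCD in 2 (12.1%) and OMCD and IMCD in 1 (18.6%). Between PTS1 and PTS3, 2 of 5 were called (10.1%), Slc22a5 higher in PTS1 and Slc22a2 higher in PTS3. At PTS3-DTL1 the share of members called is no higher than that of all genes.

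The scaling bears on the descending limb pairs. The median difference of all genes was -1.33 between PTS3 and DTL1, -0.71 between PTS3 and DTL2 and 0.54 between DTL1 and DTL2, and of the calls between PTS3 and DTL1 5.73% were higher in PTS3, against 15.4% with median ratio rescaling and 50.8% with quantile normalization. That share moved by over 10 points under 1 of the 2 rescalings in 14 of the 15 pairs. The members called kept their direction under both rescalings except Slc22a3 at PTS3-DTL1 and PTS3-DTL2.

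Summed over the 6 genes, the transcripts stood at 2063 ± 190 TPM in PTS2 (n = 5), 844 ± 107 in PTS3 (n = 3), 621 ± 58.3 in PTS1 (n = 3), 341 ± 105.2 in ATL (n = 4), 258 ± 47.3 in DTL2 (n = 3) and 226 ± 17.3 in DTL3 (n = 3), and at 151 TPM or less elsewhere, down to 25.9 ± 7.20 in IMCD (n = 3). Their makeup changed along the tubule. In PTS1 Slc47a1 made up 53.3% and Slc22a5 33.4% of the sum, and in PTS2 Slc22a2 42.8% and Slc47a1 42.7%. In DTL2 Slc47a1 made up 68.6%, in DTL3 Slc22a5 93.7%, in ATL Slc22a4 93.2% and in CNT Slc22a5 96.2%.

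The group means of Slc22a2 and Slc47a1 had a Pearson r of 0.88 over the 15 groups on the log2 scale, and the other pairs of tested members r of 0.54 or less. These points are means of 3 to 5 mice and share the dissection of their segments, so r is a description only. Among 12067 genes that reached a group mean of 10 TPM, those most like Slc22a2 were Serpinf2, Slc22a12 (the urate carrier URAT1) and Cyp4a31 (r 0.997, 0.996 and 0.995). Those most like Slc47a1 were Slc10a5, Cldn2 (a claudin of leaky epithelia) and Tmem174 (0.980, 0.977 and 0.974). Slc22a4 was nearest to Cldn10 (0.872), a claudin with means of 3517 TPM in ATL, 1256 in MTAL and 742 in CTAL, with Mrpl38 and Ninj1 at 0.771 and 0.758, and Slc22a5 to Nat8f2, Cyp2a5 and Exoc6 (0.875, 0.866 and 0.825). Slc22a3 was nearest to Prokr2, Lhx9 and Bpifa2 (0.981, 0.980 and 0.978).

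The rest of the pathway was read from 39 genes listed by role: 10 other cation and choline carriers, 13 genes of carnitine handling, 7 of monoamine metabolism and 9 scaffolds and regulators. Of these 37 passed the filter and all 37 differed among the groups, beside 93.9% of all genes. Between PTS1 and PTS2, 5 of the 37 were higher in PTS1 (4.46% of all genes), 9 higher in PTS2 (5.1%) and 23 not called, with a median log2 difference of -0.36 against 0.15 over all genes. Between PTS2 and PTS3, 7 were higher in PTS2 (3.94%), 2 higher in PTS3 (0.755%) and 28 not called, with a median of 0.45 against 0. Between PTS1 and PTS3 7 were higher in PTS1 (6.14%), 5 higher in PTS3 (3.97%) and 25 not called, with a median of 0.18 against 0.18.

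Of the 10 other carriers, 5 were higher in PTS2 than in PTS3 (3.94% of all genes) and 0 lower (0.755%). The choline and thiamine pyrophosphate carrier Slc44a4 went from 105.1 ± 13.7 TPM in PTS1 (n = 3) to 261 ± 40.0 in PTS2 (n = 5) and 90.5 ± 14.1 in PTS3 (n = 3), both steps being called (-1.302 and 1.54) and PTS2 being its highest group. The first of these calls was lost under quantile normalization (-0.83, adjusted p 0.0741 in limma). The thiamine carrier Slc19a2 (6.37, 16.9 and 6.98 TPM) was likewise higher in PTS2 than on either side (-1.301 and 1.23), though its highest group was CNT at 32.9 ± 2.02 TPM (n = 3). Both Slc19a2 calls were lost with a pseudocount of 5 (-0.95 and 0.90), and the second under quantile normalization (0.77). The choline carrier Slc44a1 was higher in PTS2 than PTS3 by 1.19 (0.89 and no longer called without PTS3 mouse 2, 0.96 with a pseudocount of 5 and 0.74 under quantile normalization) and highest in OMCD at 286 ± 37.1 TPM (n = 4).

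Of the 12 carnitine genes tested, 6 were called between PTS1 and PTS2 (9.57% of all genes), 2 higher in PTS1 (4.46%) and 4 in PTS2 (5.1%). Crot, the peroxisomal carnitine octanoyltransferase, went from 94.9 ± 11.9 TPM in PTS1 (n = 3) to 997 ± 61.9 in PTS2 (n = 5) and 1162 ± 182 in PTS3 (n = 3), a log2 difference of -3.39 between the first pair (SE 0.18, limma adjusted p 5.25e-20). Slc16a9, a carnitine efflux carrier, went from 41.9 ± 5.99 to 188 ± 31.3 and 109.7 ± 18.9 TPM, highest in PTS2 (PTS1 minus PTS2 -2.13, SE 0.27, adjusted p 1.46e-08). Cpt1a, the rate-limiting step of fatty acid entry into mitochondria, was higher in PTS2 than PTS3 by 2.13 (SE 0.20, adjusted p 4.28e-11) and was highest in CTAL at 439 ± 73.9 TPM (n = 5). Tmlhe, the first enzyme of carnitine synthesis, ran the other way, lower in PTS2 than in PTS3 by -2.44 (SE 0.23, adjusted p 6.27e-11), with its highest level in DTL2 (58.9 ± 6.23 TPM, n = 3).

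Of the 6 monoamine genes tested, 3 were higher in PTS1 than PTS2 (4.46% of all genes) and 0 lower (5.1%). Maoa, a monoamine oxidase, stood at 13.0 ± 0.923 TPM in PTS1 and at 0.070 and 0.080 in PTS2 and PTS3, a difference of 3.71 to either, and it was highest in OMCD at 24.9 ± 4.38 TPM (n = 4). Maob was higher in PTS3 than PTS2 (PTS2 minus PTS3 -1.42, or -0.76 and not called with a pseudocount of 5) but highest in DCT at 57.0 ± 3.44 TPM (n = 3). Ddc, which makes dopamine, was higher in PTS1 than PTS3 by 1.22 (SE 0.40, adjusted p 0.0259), a call lost without PTS1 mouse 1 or 3 (1.18 and 1.07) or PTS3 mouse 2 or 3 (1.15 and 1.20), and with a pseudocount of 0.1 (1.23).

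Of the 9 scaffolds and regulators, 3 were higher in PTS2 than PTS1 (5.1% of all genes). Between PTS2 and PTS3 0 were called in limma (4.7% of all genes). There 4 had an unadjusted limma p under 0.05, Slc9a3r1 and Ppara among them. Slc9a3r1, an apical PDZ scaffold that binds carriers, was higher in PTS2 than PTS1 (-1.08, SE 0.16, adjusted p 3.54e-07), a call lost with median ratio rescaling (-0.90) and under quantile normalization (-0.63). Ppara, the receptor that controls fatty acid oxidation genes, was higher in PTS1 than PTS3 by 1.61 (SE 0.31, adjusted p 8.46e-05).

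**Figure D5:**
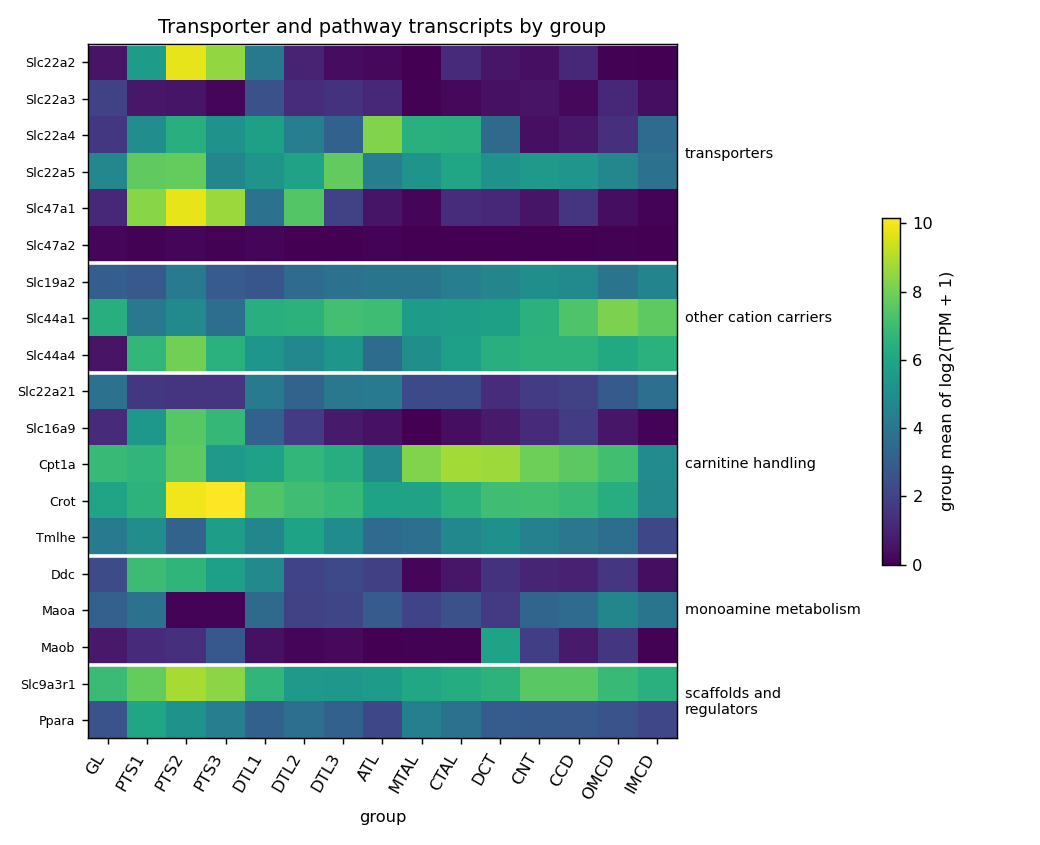
Group mean of log2(TPM + 1) (colour scale) for the 6 transporters and 13 other genes of the pathway that the text names (rows, grouped by role) in the 15 groups (columns). Slc44a4 and Slc16a9 have their highest mean in PTS2, while Cpt1a is highest in CTAL and Maob in DCT.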

How the data were processed

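RNA of 93 microdissected samples in 15 groups was measured by the submitters, and the authors deposited gene levels as TPM. Per the submitters' processing notes STAR 2.5.4a and RSEM 1.3.0 were used, and the genome build and annotation are not given in the sources used here. All columns were used (0 left unused), while the 3 single-cell (10X) samples were not analysed here. The pieces of each of 53 combinations of mouse number and segment were averaged as log2(TPM + 1), and the mouse was the replicate.

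Genes with at least 1 TPM in at least 3 mice were kept. limma 3.58.1 (R 4.3.3; lmFit, then eBayes with trend) gave F-tests, 105 pairwise contrasts and, for marking a group, the largest one-sided p of 14 contrasts, each with Benjamini-Hochberg adjustment over genes. Log2 differences on this scale understate changes of low genes. Ratios within a mouse were compared by exact permutation (scipy 1.17.1). The method was tested on simulated data, but the outcome is not reported here and no result rests on it. Alternatives were pseudocounts of 0.1 and 5, other filters, median ratio rescaling, quantile normalization, pieces averaged as TPM, a replicate block, ATL subsets and leaving out each mouse.

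The 6 members are named throughout. Of the pathway lists the text names up to 4 genes per list with the largest proximal differences among those called, plus Slc22a21. Some genes of the lists are not reported here. Genes most like a member are the 3 with the highest r, passing over predicted, mitochondrial and ribosomal names. Members and lists were chosen with earlier results of these data known. Promoters came from a RefSeq table of GRCm38.p6, which held 5 of the 6 members (not Slc47a1), and transcript overlaps and shared 50-base stretches from GENCODE M21. The files name no build, so these coordinates are those of the reference alone.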

Additional observations from a re-analysis of the deposited data

Results flagged for a closer look

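In groups of 4 or 5 mice, the gap of the highest or lowest mouse to the nearest other was set against Dixon's 95% critical value. For normally distributed values chance exceeds it in about 1 of 20 groups, a rate that need not hold for TPM near 0. Of 29 groups of 4 or 5 mice over the members, 4 exceeded the critical value. Slc47a1 stood at 2.61 TPM in ATL mouse 3, against 0.02 to 0.24 in the other ATL mice, and at 5.07 TPM in CCD mouse 4, against 0.78 to 1.84 in the other CCD mice. Slc47a2 stood at 0.26 TPM in ATL mouse 4, where the other ATL mice were listed at 0, and at 0.08 TPM in CCD mouse 1, against 0 to 0.015. In that ATL group any value above 0 would have exceeded the critical value. In CCD mouse 4 Slc22a2 was also the highest of its group, at 2.57 TPM.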

How the results depend on the processing

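The number of members marking 1 group was 2, and 1 with a pseudocount of 0.1, with median ratio rescaling, with quantile normalization and with pieces averaged as TPM, where Slc22a2 lost its mark. It was 3 with a pseudocount of 5 and 1 to 2 when single mice were left out. Pathway gene calls between PTS2 and PTS3 were 9, and 5 with a pseudocount of 5. The cause was not tested. The Slc22a3 differences PTS3-DTL1 and PTS3-DTL2, -2.36 and -1.13, reversed to 0.0818 and 0.195 under quantile normalization. Member calls between neighbouring segments were 31, from 30 to 33 without single mice and from 23 (pseudocount of 5) to 33 (ATL mice 4 and 6 alone) under the other settings, and steps between next groups in the order of levels with an adjusted p under 0.05 were 14, from 12 to 15 without single mice and from 10 (pseudocount of 0.1) to 16 under the others. Over 69 single-gene results, 3634 of 3657 values without single mice kept direction and call and 23 lost the call. Under the other settings 701 of 754 kept both, 50 lost the call, 1 gained it (the PTS2 margin of Slc47a1 with a pseudocount of 5, 1.11) and 2 reversed.

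The mouse number was not taken to pair the samples, since no label gives it that meaning and not every pair was correlated: deviations from group means had a median correlation of 0.00018 over 290 same-numbered pairs (19 over 0.1) and 0.00037 over 1016 others (32 over 0.1). As a hint from the data, not the design, 26 of 53 mice correlated best with their own number. No chance level was computed for that count. The series counts 53 mice, 1 for each combination of number and segment. With the mouse number as a replicate block 31 member calls between neighbours were made, as without it, and 2 members marked a group. Among the genes named, the block ended the call on Slc22a3 at ATL-MTAL (0.82).

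Depth is unknown, so levels under 1 TPM carry no stated precision. Most groups hold 3 mice, TPM depend on the other transcripts of a library, and pieces cut by hand can hold RNA of neighbouring segments. The alternative without the pieces richest in proximal transcripts was chosen after seeing the data.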
